A study of Gallus gallus with 4 samples.

Results

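The genes described here encode the machinery that folds collagen and other secreted proteins in the endoplasmic reticulum (ER), carries them out of it and finishes collagen outside the cell. The members were 56 gene symbols fixed as a list, each taken where the array annotation gave that symbol alone on a probe set, with the brightest probe set standing for the gene. Of these, 51 were found among the 13009 genes so named, on 113 probe sets, and 49 were among the 7805 genes bright enough to be tested. PLOD3, FKBP10, BMP1, CREB3L1 and ATF6 were not found under their names and are not analysed here, and P3H2 and LOX were too dim for the test. The samples came from the tibia of white leghorn chicken (Gallus gallus) embryos of Hamburger-Hamilton stage 38, embryonic day 12 (E12), and stage 40, embryonic day 14 (E14). At each stage, purely transient cartilage of the epiphysis (TC), which is later replaced by bone, was set against a dissection of articular cartilage with some transient cartilage (TC+AC). No treatment or genetic change is named for any group, tissue from many dissections was pooled into each sample, and 5 µg of total RNA was labelled with biotin. The 4 groups had 1 array each and no replicates.

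Fibrillar collagen chains enter the ER through the SEC61 channel and are held by chaperones such as BiP while prolyl and lysyl hydroxylases modify them. The trimer is stabilised by hydroxyproline, is bound by the collagen chaperone HSP47 and leaves the ER in COPII carriers. Outside the cell the propeptides are removed and lysyl oxidases crosslink the fibrils. Chondrocytes secrete large amounts of collagen, and the loss of several of these factors causes skeletal dysplasia in human or mouse.

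The arrays differed in quality. The ratio of 3' to 5' intensity for beta-actin, which increases as RNA degrades, was 7.48 on the TC+AC E14 array and between 1.99 and 4.01 on the others, and for EF1-alpha it was 3.97 against 1.45 to 1.64. Markers of cell types also shifted between arrays. All 7 chondrocyte markers found of 8 listed were above background on every array, and their summed normalized intensity was 13275 in TC E12, 9408 in TC+AC E12, 36101 in TC E14 and 16782 in TC+AC E14. The sum over 7 skeletal muscle genes found of 8 was 870.2, 574, 177 and 533 in the same order, and that over 6 erythroid genes found of 8 was 17723, 18743, 9079 and 18163. Hypertrophic cartilage markers (7 found of 8) summed to 6215, 716, 5950 and 790, with 4 of 5 tested called lower in TC+AC by limma. Osteoblast markers (7 of 8) summed to 18085, 10627, 12363 and 10231, with 3 of 6 called lower. Of all genes tested, 0.73% were called lower. IBSP, SPP1 and ALPL are on both lists, so the sums and calls of the lists can overlap. COL1A1, whose intensities are given further below, made up most of the osteoblast sum on every array. The median log2 difference (TC+AC minus TC) of the 6 tested osteoblast markers was -2.44 at E12 and -2.16 at E14. MYOG, a defining muscle factor, and IHH, of the hypertrophic list, were below background on all 4 arrays. The part of RNA quality and of these tissue shares in the differences reported here was not tested. In pooled tissue, fewer cells of a type and less RNA per cell cannot be told apart.

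TC+AC had lower values than TC for most of the secretory genes, by a small median amount at E12 and a larger one at E14. The 2 arrays of a stage also differed more at E14 over all genes tested (Pearson r = 0.93 at E12 and 0.77 at E14). Of the 49 tested members, 31 were below TC at both stages and 4 were above it at both, where 29.4% and 31.1% of all genes tested were. The number below TC was 40 at E12 and 36 at E14, where 3911 and 3752 of 7805 genes tested were. The median log2 difference (TC+AC minus TC) of the members was -0.35 at E12 and -0.69 at E14, against -0.0019 and 0.05 over all genes tested. At E12, 3 members were at least 2-fold lower and 0 at least 2-fold higher, where the shares of all genes were 3.28% and 4.46%. At E14, 21 were at least 2-fold lower and 3 higher, where the shares were 15.6% and 20.3%. The E14 counts depended on scaling. As deposited, 37 members were lower and 0 higher, where 53.7% and 2.88% of all genes were. With arrays centred on their medians, the counts were 29 and 2 (24.1% and 12% of all genes). Scaled on hybridization controls, they were 42 and 0 (71.4% and 1.22%). The median of all genes was -1.09, -0.27 and -1.60 in the same order. Relative to that all-gene median, the members' median at E14 was -0.75 under the scaling used here and -0.82 under each of these 3. At E12 it was between -0.35 and -0.32. These 3 scalings differ from each other by 1 factor per array, so their agreement on a relative value was nearly fixed by arithmetic. At E12 the actin 3' to 5' ratio was 3.26 in TC and 4.01 in TC+AC. With the mean of all probe sets of a gene, the members' median was -0.21 at E12 and -0.68 at E14. Of 48 tested members, 6 were then 2-fold apart at E12, where 3.61% of all genes were lower and 4.64% higher.

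The test for tissue, limma's moderated linear model with stage as a second term, averages the differences of both stages. It called 1 of 49 members lower in TC+AC and 0 higher, where 0.73% and 0.743% of all genes were called. The gene called was PCOLCE2. Fits on 3 arrays, which lose the stage term, called 8 members without TC E12 (883 of all 7805 genes), 1 without TC E14 (65 of 7805) and 0 without either TC+AC array (0 of 7805). At an unadjusted p under 0.05 there were 9 of 49 members and 1046 of 7805 genes. The 9 were 8 lower in TC+AC (HSPA5, HSP90B1, PDIA6, P4HA1, PLOD2, FKBP9, FKBP14 and PCOLCE2) and 1 higher (LOXL1). With 1 array per group, the test holds no spread between embryos or dissections, and its variance comes mostly from a prior shared by all genes. A 2-fold gap repeated at E12 and E14 was found for 2 members lower in TC+AC (PCOLCE2 and FKBP14) and 0 higher, where 1.4% and 2.49% of all genes were.

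**Figure D1:**
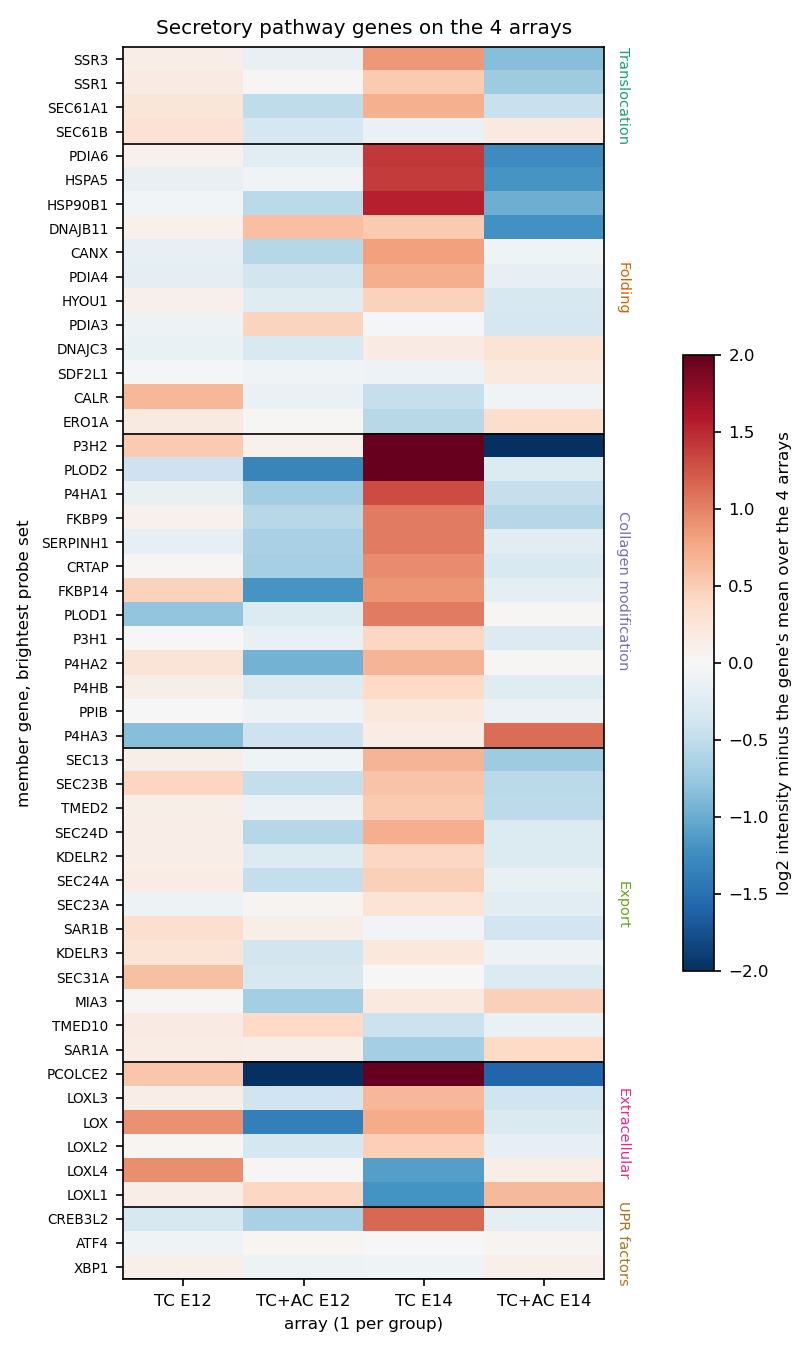
Log2 normalized intensity of the 51 members, minus each gene's mean over the 4 arrays, by array (columns) and gene (rows, grouped by role), with colours cut off at 2 in either direction. The TC E14 column is the reddest. Of the 49 tested members, 31 had their highest value there and 7 their lowest, where 30.3% and 38.6% of all genes tested did. The lowest value was in TC+AC E12 for 22 and in TC+AC E14 for 17, where 16.5% and 29.9% of all genes had theirs.

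**Figure D2:**
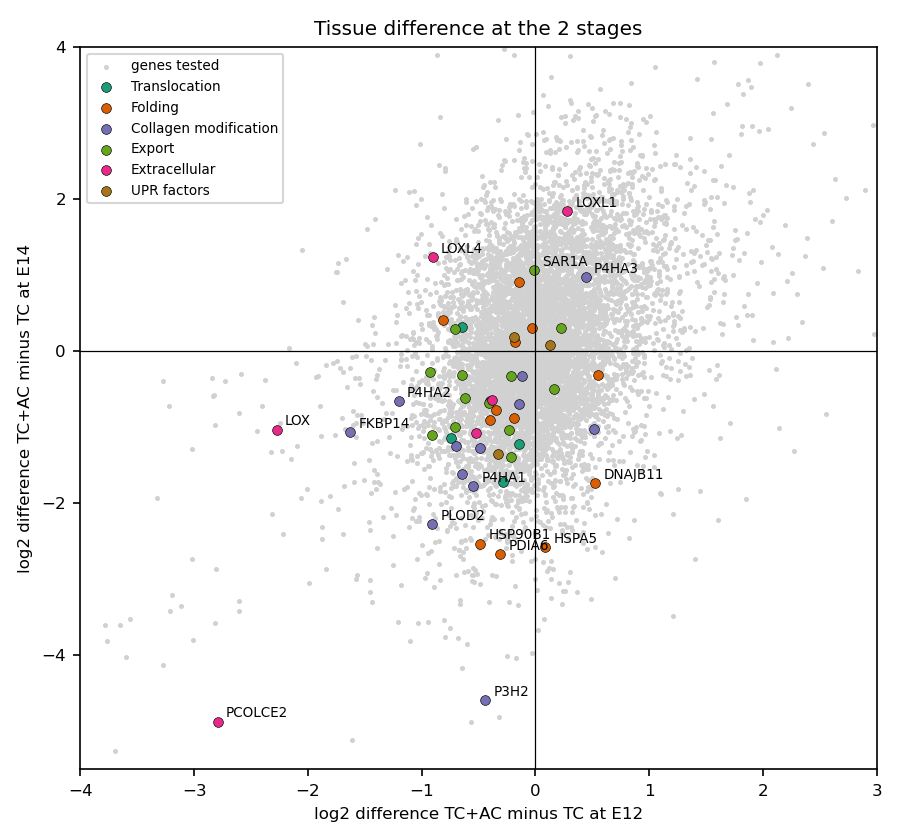
Log2 difference TC+AC minus TC at E12 (x axis) and E14 (y axis), for members coloured by role and for other tested genes in grey, some of which lie outside the axes. Of 49 tested members, 31 lie below 0 on both axes, with PCOLCE2 farthest out.

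Intensities are given below in the order TC E12, TC+AC E12, TC E14 and TC+AC E14, on the quantile-normalized linear scale; they compare arrays for 1 gene and not genes with each other. Among the 4 translocation genes, SSR3, a subunit of the translocon-associated TRAP complex, had 1772, 1453, 2942 and 892. It was 1.22-fold lower in TC+AC at E12 and 3.30-fold lower at E14. SSR1, another TRAP subunit, had 2980.2, 2701, 3819 and 1629. SEC61A1, which forms the channel itself, had 1225, 733, 1695 and 765, so both TC+AC arrays lay below both TC arrays. SEC61B, the small beta subunit of the channel, had 4889, 3133, 3676 and 4597. On brightest probe sets it was the 1 translocation gene that was higher in TC+AC at E14. Its next-brightest probe sets were higher in TC+AC at both stages (log2 0.17 and 0.04 at E12, 0.57 and 0.70 at E14). A dimmer one, above background on every array, had 1.13 at E12 and -0.45 at E14. Median log2 differences for the role were -0.46 (E12) and -1.19 (E14), and 0 of 4 passed the test.

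Several ER chaperones were farther apart at E14 than at E12. HSPA5, which encodes BiP, the main ER chaperone, had 976, 1035, 2872 and 481. The E12 pair differed by 1.06-fold, while at E14 TC+AC was 5.97-fold below TC. HSP90B1, which encodes the chaperone GRP94, had 1195, 852, 3656 and 631, which made TC+AC 1.4-fold and 5.79-fold lower. PDIA6, a disulfide isomerase, had 422, 339.9, 1056 and 166, or 1.24-fold and 6.38-fold lower. In all 3 the TC E14 array was the highest and the TC+AC E14 array the lowest. Their fitted tissue differences were -1.25 ± 0.56 (SE) for HSPA5, -1.51 ± 0.53 for HSP90B1 and -1.49 ± 0.54 for PDIA6, with limma adjusted p of 0.308, 0.161 and 0.182 over 4 arrays, so none passed. DNAJB11, a co-chaperone of BiP, had 81.6, 118, 111 and 33.3, highest in TC+AC at E12 and lowest in TC+AC at E14.

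Not every chaperone followed this order on its brightest probe set. CANX and PDIA4, a lectin chaperone and a disulfide isomerase, were highest in TC at E14 (813 and 807) but had similar values on the 3 other arrays, 310.0 to 434 for CANX and 377 to 437 for PDIA4. CALR, the soluble lectin chaperone calreticulin, had 593, 338, 269 and 356 and was highest in TC at E12. PDIA3, the disulfide isomerase that works with both lectins, had 347, 507, 367 and 296. Other probe sets above background on every array had 318, 317, 709 and 230 for CANX and 242, 329, 388 and 121 for PDIA3. Both of these were highest in TC at E14 and lowest in TC+AC at E14. A dimmer PDIA3 probe set was highest in TC+AC at E14, with 26.4, 29.85, 24.3 and 35.7. The other PDIA4 probe set, above background on every array, was highest in TC at E12, with 303, 229, 126 and 94.4. ERO1A, the oxidase that recharges disulfide isomerases, had 96.2, 86.9, 58.1 and 109, lowest in TC at E14. The BiP co-chaperones DNAJC3 and SDF2L1 and the exchange factor HYOU1 differed by at most 1.71-fold between tissues at either stage. Of the 12 chaperone genes, 9 were below TC at E12 and 8 at E14, where 3911 and 3752 of 7805 genes tested were. Their median log2 differences were -0.19 and -0.83, and 0 passed the test.

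**Figure D3:**
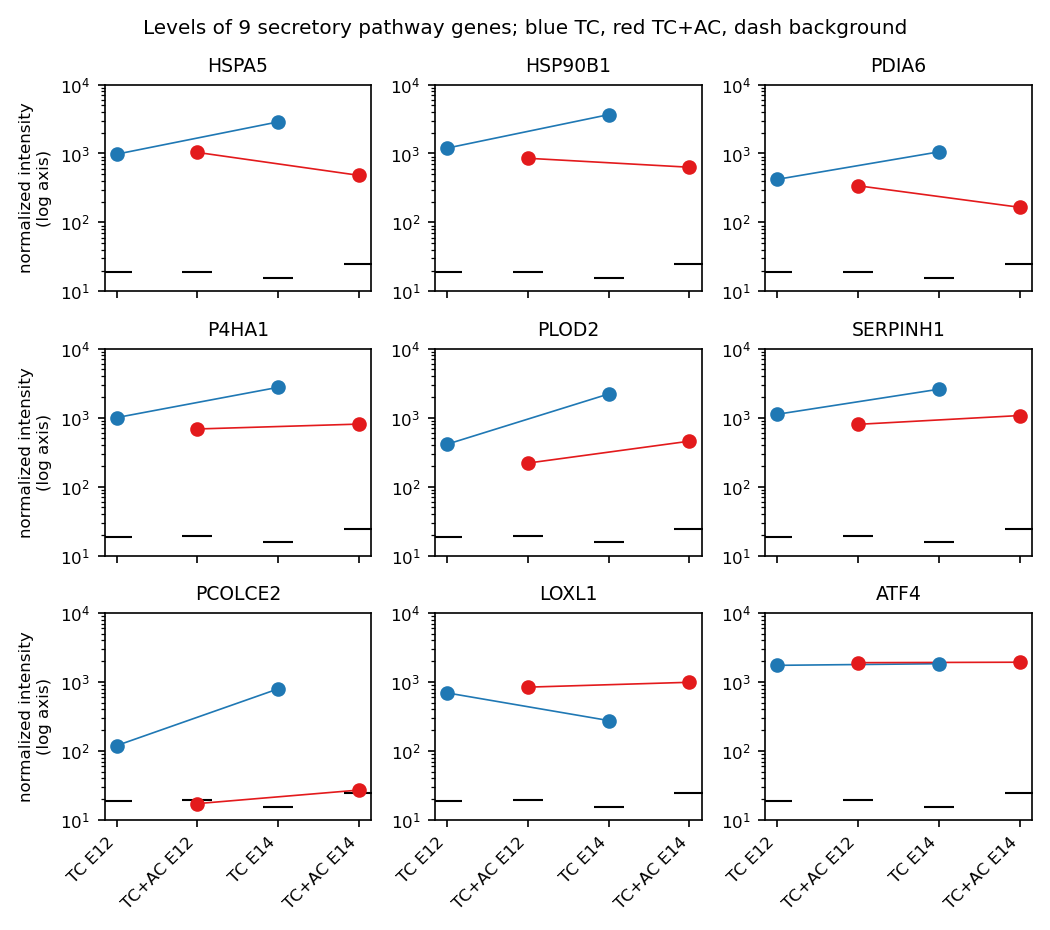
Normalized intensity (log axis) of 9 members on the 4 arrays, TC in blue and TC+AC in red, with lines joining the stages of a tissue and dashes for the background of each array. HSPA5, HSP90B1 and PDIA6 are farther apart at E14 than at E12, and PCOLCE2 is apart at both stages. LOXL1 runs the other way and ATF4 is level on its brightest probe set.

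Of the 12 tested genes that modify or hold collagen, 10 were below TC at both stages, where 29.4% of all genes tested were. PLOD2, a lysyl hydroxylase that acts on collagen telopeptides, had 412, 219.6, 2208 and 457. It was 1.88-fold lower in TC+AC at E12 and 4.83-fold lower at E14 (-1.59 ± 0.51, limma adjusted p = 0.118, 4 arrays). P4HA1, the main catalytic subunit of prolyl 4-hydroxylase, had 1003, 686, 2759.8 and 808, or 1.46-fold and 3.42-fold lower. P4HA2, its counterpart prominent in chondrocytes, had 667, 290.1, 894 and 566 on the brightest probe set, or 2.30-fold and 1.58-fold lower. Its other probe set had log2 differences of -1.75 (E12) and -2.96 (E14), so the order of the stages was not the same on both. The shared beta subunit P4HB had 5303, 4023, 6473 and 4123.

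Further members of this role followed the same order. SERPINH1, which encodes HSP47, had 1122, 802, 2591 and 1075. CRTAP, a subunit of the prolyl 3-hydroxylase complex, had 2078, 1282, 3913 and 1646. FKBP9, an ER prolyl isomerase, had 2759.8, 1767, 5358 and 1748, or 1.56-fold and 3.06-fold lower. In these 3 genes both TC arrays lay above both TC+AC arrays. FKBP14, a related isomerase, had 46.8, 15.1, 63.2 and 30.2 and stood at least 2.45-fold under TC at E12, where TC+AC was below background, and 2.09-fold under it at E14 (-1.35 ± 0.50, limma adjusted p = 0.189, 4 arrays). PPIB, the cyclophilin of the 3-hydroxylase complex, differed least, with 3295, 3045, 3798 and 3021, and its catalytic subunit gene P3H1 had 221, 199.9, 294 and 182. The dim gene P3H2, which encodes a related 3-hydroxylase, had 37.0, 27.3 and 103 and was below background in TC+AC at E14, at least 4.19-fold under TC.

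PLOD1 and P4HA3 departed from the rest of this role. PLOD1, the lysyl hydroxylase of collagen helices, had 393, 562, 1402 and 689, which placed TC+AC 1.43-fold higher at E12 and 2.03-fold lower at E14. P4HA3, a further catalytic subunit of prolyl 4-hydroxylase, had 138, 187, 275 and 539 and was 1.36-fold and 1.96-fold higher in TC+AC. The role's median log2 difference was -0.52 at E12 and -1.04 at E14. At E14, 7 of 12 were at least 2-fold lower, where 15.6% of all genes tested were, and 0 of 12 passed the test.

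Export genes had a smaller median difference than the chaperones at E14 and a larger one at E12. SEC13, part of the outer COPII coat, had 1786, 1542, 2623 and 1002, or 1.16-fold and 2.62-fold lower in TC+AC. Its coat partner SEC31A had 453, 238, 299 and 248 and was 1.90-fold lower at E12 but 1.21-fold lower at E14. SEC23B, an inner coat subunit, had 282, 150.4, 309 and 144 on its brightest probe set. There TC was about as far above TC+AC at each stage (1.88-fold and 2.15-fold). The other SEC23B probe set, above background on every array, was higher in TC+AC at both stages (log2 0.74 and 1.73). The cargo-binding subunit SEC24D had 996, 612, 1509 and 753, and its counterpart SEC24A had 255, 166, 322 and 209.8, 1.53-fold lower at both stages. SEC23A, which is mutated in a human craniofacial dysplasia, had 305, 342, 396 and 280.2.

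The cargo and retrieval receptors were also mostly lower. KDELR2, which returns escaped chaperones to the ER, had 3913, 2942, 4729 and 2942, and KDELR3 had 656, 419, 628 and 504. The other KDELR3 probe set, above background on every array, was higher in TC+AC at both stages (log2 0.34 and 1.31). TMED2, a p24 cargo receptor, had 2302, 1963, 3057 and 1489.6, while its partner TMED10 had 864, 1008, 569 and 703. On brightest probe sets, TMED10 was the 1 export gene above TC at both stages. SAR1A, the GTPase that starts coat assembly, had 872, 864, 493 and 1032, at least 2-fold higher in TC+AC at E14, whereas SAR1B had 942, 814, 718 and 573. MIA3, which encodes the collagen receptor TANGO1 of ER exit sites, was dim at 33.6, 20.6, 37.8 and 46.2. Of these 13 genes, 9 were below TC at both stages, where 29.4% of all genes tested were. The median log2 differences of the 13 were -0.41 and -0.50, and 0 passed the test.

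Outside the cell, PCOLCE2 stood farthest from zero of the 49 tested members at both stages, on values as measured. At E12 only a lower bound is known for PCOLCE2 itself and for FKBP14. Only bounds are known too for P3H2 at E14 and LOX at both stages, which are not among the tested members. In these comparisons the genes cannot be ranked against PCOLCE2. PCOLCE2 encodes an enhancer of the protease that removes procollagen propeptides. Its intensities were 119, 17.2, 794 and 27.1, of which the TC+AC E12 value was below background and the TC+AC E14 value just above the background of 24.6. Both TC+AC values lay well under both TC values. TC+AC was under TC by at least 6.25-fold at E12 and by 29.4-fold at E14 (-3.83 ± 0.53 SE, limma adjusted p = 4.49e-05, 4 arrays). The call did not hold in the fits on 3 arrays without TC+AC E12 (limma adjusted p = 0.615) or without TC+AC E14 (adjusted p = 0.999), which have no stage term and called 0 of 7805 genes. The log2 difference there was -3.51 and -4.16. It held without TC E12 and without TC E14. Its second probe set was below background on all 4 arrays, and the mean of both did not pass (adjusted p = 0.30).

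The lysyl oxidase family split. LOX, which crosslinks collagen and elastin, had 53.8, 11.1, 48.2 and 23.5, with both TC+AC values below background, so the gap to TC was at least 2.82-fold in the E12 pair and at least 1.96-fold in the E14 pair. LOXL1, a family member known for elastic fibre assembly, had 694, 840.1, 276 and 988 and was 1.21-fold and 3.59-fold higher in TC+AC (1.06 ± 0.52, limma adjusted p = 0.372, 4 arrays). LOXL4 had 72.8, 38.9, 17.7 and 41.7, lower in TC+AC at E12 and higher at E14. LOXL2 (134, 103, 182 and 116) and LOXL3 (79.6, 55.5, 116 and 55.1) were highest in TC at E14. Thus 2 oxidase genes, LOXL1 and LOXL4, had their lowest value in TC at E14, where LOXL2 and LOXL3 had their highest. The LOXL4 value there was just above the background of 15.6.

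Of the stress-response factors, CREB3L2 had the largest gap at either stage on the brightest probe set, and it did not pass the test. It encodes an ER-anchored factor that drives secretory genes in mouse chondrocytes. It had 802, 639, 2225 and 873, or 1.25-fold and 2.55-fold lower in TC+AC (-0.84 ± 0.50, limma adjusted p = 0.488, 4 arrays). Another CREB3L2 probe set, above background on every array, was higher in TC+AC at both stages (log2 0.47 and 0.27). The remaining CREB3L2 probe sets had log2 differences of -0.67 to -1.61 at E14. XBP1, whose spliced form activates ER chaperone genes, had 3547, 3105, 3116 and 3547. ATF4, the factor induced when translation is slowed under stress, had 1741, 1903, 1837 and 1932. On these probe sets the levels of XBP1 and ATF4 differed by at most 1.14-fold in any of the 4 comparisons. Other probe sets above background on every array had log2 tissue differences at E14 of -0.70 for ATF4 and -0.38 for XBP1. Array intensity does not show XBP1 splicing or ATF4 protein.

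**Figure D4:**
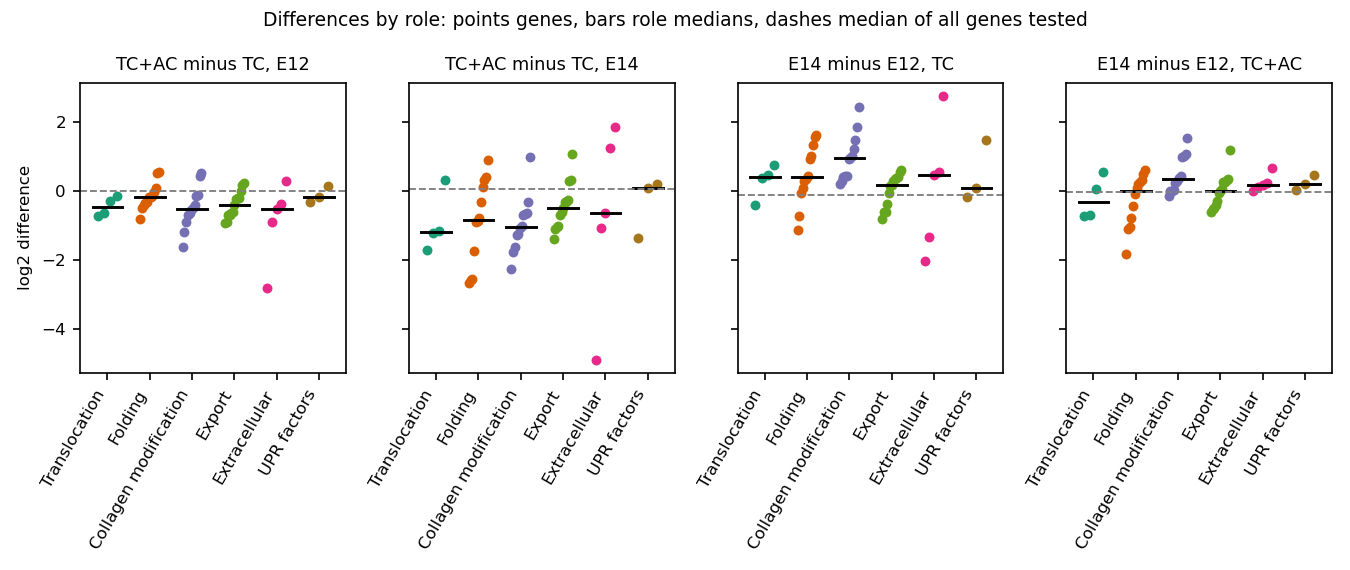
Log2 differences of the 49 tested members by role in the 4 comparisons, with bars for role medians and a dashed line for the median of all genes tested. The medians of translocation, folding, collagen modification, export and extracellular genes are below 0 in both tissue comparisons and above 0 from E12 to E14 in TC.

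From E12 to E14, most members had higher values in TC, and no member passed the stage test. The change was lower in TC+AC than in TC for 32 of 49 members and 3802 of 7805 genes tested. By arithmetic these are also the counts with a tissue difference lower at E14 than at E12. In TC, 37 of 49 members were higher at E14, where 3391 of 7805 genes tested were. The members' median log2 change was 0.41, against -0.13 over all genes tested. As deposited, without joint normalization, the members' median in TC was 0.43 above that of all genes. The actin 3' to 5' ratio was 3.26 in TC E12 and 1.99 in TC E14. At least 2-fold higher were 9 members and 3 were at least 2-fold lower, where the shares of all genes were 8.3% and 14.1%. The 9 were PCOLCE2 (6.65-fold), PLOD2 (5.36-fold), PLOD1 (3.57-fold), HSP90B1 (3.06-fold), HSPA5 (2.94-fold), CREB3L2 (2.77-fold), P4HA1 (2.75-fold), PDIA6 (2.50-fold) and SERPINH1 (2.31-fold). The 3 lower were LOXL4 (4.10-fold, to a value just above background), LOXL1 (2.52-fold) and CALR (2.20-fold). On their brightest probe sets, all 12 tested collagen-modifying genes were above their E12 level in TC. Another P3H1 probe set, above background on every array, was lower at E14 in TC (log2 -0.45).

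In TC+AC the median change was 0.10, with 3 members at least 2-fold higher (P4HA3, PLOD2 and MIA3) and 3 lower (HSPA5, PDIA6 and DNAJB11), where the shares of all genes were 4.71% and 7.92%. The sign of that median depended on scaling: it was -1.17 as deposited, -0.37 with centred arrays and -1.03 on hybridization controls. It was 0.15 to 0.18 above the all-gene median under all 4. The last 3 scalings differ from each other by 1 factor per array, so this relative value could hardly change between them. The MIA3 value in TC+AC at E12, 20.6, was just above the background of 19.1. None of its other probe sets was above background on every array. Between these 2 arrays 1 of them went from 71.0 to below background, and another from below background to 31.6. PLOD2 was the 1 member at least 2-fold higher in both tissues and 0 were lower in both, where 0.897% and 1.49% of all genes were. The test for stage called 0 of 49 members higher or lower, where 0.141% and 0.115% of all genes were called. At an unadjusted p under 0.05 limma had 4 of 49 members and 539 of 7805 genes. The 4 were higher at E14, namely PLOD2, PCOLCE2, P4HA3 and PLOD1. PLOD2 had the lowest adjusted p, with a change of 1.74 ± 0.51 (SE, limma adjusted p = 0.226, 4 arrays).

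Probe sets of the same gene did not always go together. For 25 members, several probe sets were above background on every array. Their tissue differences had the same sign in 17 of 25 genes at E12 and in 15 of 25 at E14, and their stage changes in 14 of 25 in TC and 7 of 25 in TC+AC. HSP90B1, P4HA1 and PLOD2 kept their sign at E14 on the dimmer probe set, with log2 differences of -1.43, -1.32 and -1.10. P4HB, which differed little on its brightest probe set, had -3.95 on the other. SEC23B had -1.10 on the brightest and 1.73 on the other, and P3H1 had -0.69, -0.32 and 1.89. HSPA5, PDIA6, SERPINH1, CRTAP and FKBP9 had 1 probe set each. Over all 85 member probe sets above background on every array, 62 were below 0 at E12 and 62 at E14. The share over all probe sets of the arrays was not counted.

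**Figure D5:**
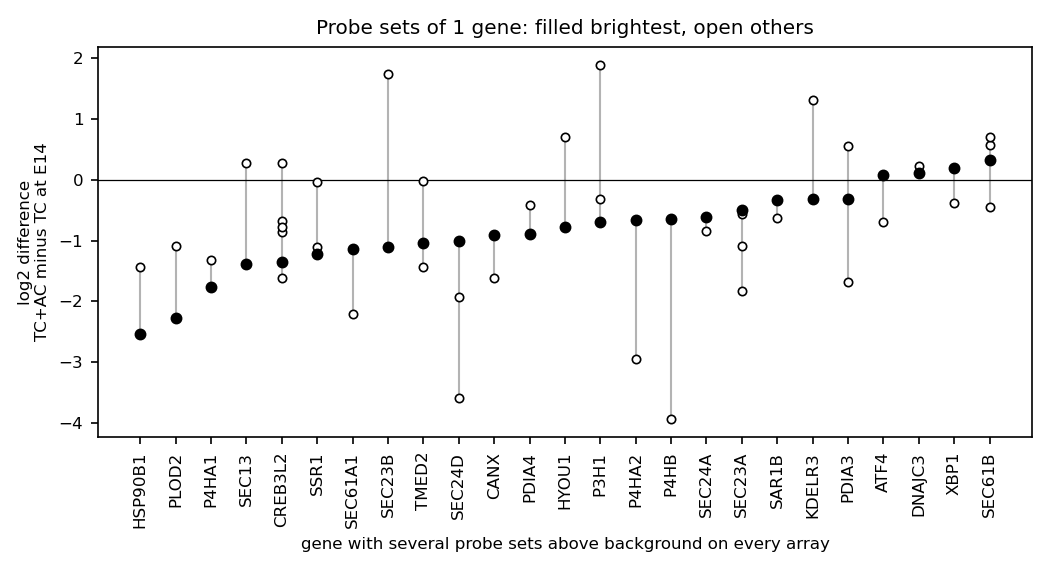
Log2 difference TC+AC minus TC at E14 for each probe set of the 25 members with several above background on every array, with the brightest filled. The widest spread is that of P4HB, from -0.65 to -3.95, and 10 of 25 genes have probe sets on both sides of 0.

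Other genes of the same pathway, from lists that hold no member, were also mostly below TC, except those of collagen processing. Over 84 tested genes of 125 listed for folding, translocation, vesicle traffic, ER degradation and collagen processing, 46 were below TC at both stages and 9 above. Of all genes tested, 29.4% and 31.1% were. The medians of the 84 were -0.26 (E12) and -0.51 (E14) on the log2 scale. None of the 84 was called for tissue or stage. The folding and glycosylation list (23 tested) had medians of -0.33 and -0.79, the translocation list (16) -0.03 and -0.57, and the vesicle coat list (20) -0.36 and -0.47. The ER degradation and stress list (17) had -0.45 and -0.46, and the collagen processing list (8) 0.21 and 0.02. Chosen after their values were seen, RCN1, a calcium-binding ER protein gene, had 1997, 1669, 5760.4 and 1939 and SURF4, a cargo receptor gene, 2389.7, 1837, 3931 and 1347.

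Collagen genes, whose products this machinery handles, had a median log2 difference of -0.17 at E12 and -0.11 at E14. Of 13, 8 were below TC at E12, 10 at E14 and 7 at both, where 3911, 3752 and 2294 of 7805 genes tested were. The difference from the members was not tested. By limma 1 was called for tissue, COL10A1, the collagen of hypertrophic cartilage, at 12.6-fold and 12.2-fold lower in TC+AC. COL2A1, the main cartilage collagen, had 3182, 2916, 6527 and 5475. Its level at E14 was thus 1.19-fold lower in TC+AC. The tested collagen-modifying genes ran there from 4.83-fold lower (PLOD2) to 1.96-fold higher (P4HA3), with P4HA1 3.42-fold, P4HB 1.57-fold and PPIB 1.26-fold lower. Other cartilage collagens had log2 differences at E14 of -1.40 (COL9A3), -0.70 (COL9A1), -0.55 (COL11A1) and -0.11 (COL9A2). COL1A1, the collagen of bone and fibrous tissue, had 11884, 10145, 10629 and 9816, and the soft tissue collagen gene COL3A1 had 3116, 4472, 1983 and 4957.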

How the data were processed

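Total RNA of embryonic chicken tibial cartilage was hybridized to 4 Affymetrix arrays, 1 per group. The deposited table held linear intensities for 38535 probe sets; for the authors' summary method, background correction and scaling, the sources used here give nothing. For arrays, their number limits the precision. Of the probe sets, 96 controls were left out and 38439 were quantile normalized, since log2 medians differed by 0.82 between arrays. Values were floored at the 20th percentile (4.275) and taken to log2. Symbols came from the platform annotation (27178 probe sets with 1 symbol, 177 with several, 11180 with none), and the brightest probe set stood for each gene. The dimmest 40% of genes were left out of the test. The test was limma 3.58.1 (R 4.3.3) with additive tissue and stage terms, with p-values adjusted by Benjamini-Hochberg over 7805 genes at 0.05. This leaves 1 residual degree of freedom, to which the prior added 27.0. The fit was tested on simulated data that had the same tissue shift at both stages and no array-quality effect. That run cannot show how the fit handles tissue differences that change with stage.

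As background, the 95th percentile of 541 virus probe sets was taken per array (18.9, 19.1, 15.6 and 24.6, in the order used in the results). Where 1 side of a comparison was at or below it, background replaced the dim value and the fold is a lower bound. Within a stage or a tissue there is no test, and a fold of 2 is used for counts. The members, roles and lists were chosen with earlier results of these data known. Intensities on all 4 arrays were to be given for members past the test, members at least 2-fold in the same direction in both pairs, and the 3 brightest of each role; other members are shown to cover each role. Figures used Python 3.11.15 with matplotlib 3.10.9. Promoter and protein sequences were not analysed here.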

Additional observations from a re-analysis of the deposited data

Results flagged for a closer look

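From E12 to E14, 2 members were at least 2-fold apart in opposite directions in the tissues, and the difference between tissues was not tested. HSPA5 had a log2 change of 1.56 in TC and -1.11 in TC+AC. PDIA6 had 1.32 in TC and -1.04 in TC+AC. Each has 1 probe set, and the TC+AC values rest on the E14 array with the highest 3' to 5' ratios.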

How the results depend on the processing

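The count of members called for tissue was 1, namely PCOLCE2, where 115 of all 7805 genes were called. It stayed at 1 as deposited, with arrays centred on their medians, scaled on hybridization controls and with the floor at the 10th percentile. The member was PCOLCE2 each time, and 32, 152, 26 and 114 of all 7805 genes were called in that order. The count was 0 with probe sets averaged per gene, where 29 of 7805 genes were called. With no dim filter it was 0 (0 of 13009 genes), and without the stage term 0 (12 of 7805). With the lowest 60% of genes left out it was 2, PCOLCE2 and PLOD2 (217 of 5204 genes). With the lowest 80% left out, an alternative chosen after seeing the data, it was 1, namely PLOD2 (101 of 2602 genes). PCOLCE2 was too dim to be tested there. Leaving out 1 array each gave 0 to 8 calls, the 8 without TC E12, where 883 of 7805 genes were called (HSPA5, HSP90B1, PDIA6, P4HA1, PLOD2, FKBP9, PCOLCE2 and LOXL1); those fits have no stage term, and the fits with 0 members called 0 of 7805 genes. The cause of these moves was not tested. The count for stage was 0 under every alternative run. Over all genes tested, the stage calls ran from 0 as deposited to 68 with centred arrays. Over these alternatives the limma adjusted p of PCOLCE2 for tissue ran from 1.27e-11 to 0.999. The fitted stage change of PCOLCE2 ran from -0.74 to 4.13 as 1 array each was left out. Those stage fits have no tissue term, so they mix the tissue difference into the stage change. Within a tissue, the log2 change of PCOLCE2 was 2.73 in TC. In TC+AC, where its E12 value was below background, it was at least 0.50. Members at least 2-fold apart at E12 numbered 3, but 5 on hybridization controls and 6 with the mean of probe sets. Of all genes, 4.01% were then lower and 4.41% higher on hybridization controls, and 3.61% and 4.64% with the mean. At E14 the members numbered 24, but 37 as deposited and 42 on hybridization controls, all of these lower in TC+AC. Of all genes, 53.7% and 71.4% were 2-fold lower there. The shares under the scaling used here are given in the results. For stage in TC+AC the members 2-fold apart numbered 6, but 11 with centred arrays, 35 as deposited and 27 on hybridization controls. All of the 11, 35 and 27 were lower at E14, where 22.7%, 70.4% and 63% of all genes were 2-fold lower. For stage in TC the 12 stayed within 1.5 times. No paired analysis was possible because each group has 1 array and the labels give no replicate numbers. Differences near background, as for LOX, LOXL4, FKBP14 and MIA3, are limited by signal.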

Other observations

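Genes of ER-associated degradation and stress sensing, 17 tested of 28 listed, had median log2 differences (TC+AC minus TC) of -0.45 at E12 and -0.46 at E14, and 0 were called. The examples were chosen after their values were seen. DERL1, a channel component of ER degradation, had intensities of 757, 552, 1595 and 713 in the order TC E12, TC+AC E12, TC E14 and TC+AC E14. EDEM1, which marks misfolded glycoproteins, had 784, 406, 734 and 558. ASNS, an asparagine synthetase gene known as an ATF4 target, had 315, 116, 191 and 176.

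Other collagen-processing genes, 8 tested of 15 listed, differed from the members in having medians of 0.21 and 0.02, with 0 called; the difference between the lists was not tested. P3H3, a prolyl 3-hydroxylase family gene, had 62.8, 75.1, 258 and 85.6. ADAMTS3, a procollagen N-proteinase gene active on collagen II, had 52.3, 69.1, 206 and 95.6. Both were highest in TC at E14, as many members were. TLL1, a protease gene related to BMP1, had 57.8, 124, 171 and 164, lowest in TC at E12.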
